A study of Rattus norvegicus with 10 samples.

Results

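The CXC chemokines described here are 9 genes, Cxcl13, Cxcl1, Cxcl2, Cxcl3, Cxcl9, Cxcl10, Cxcl11, Cxcl12 and Cxcl16, out of 14217 rat genes measured on the arrays. They were represented by 16 of 31042 probe sets, each of which the platform annotation pairs with a single gene symbol. The family was picked because Cxcl13 had the largest rise of all genes in adult samples. The adult and embryonic values of its members are therefore given as a description, with no p-value, and the count of members past the threshold used for all genes is no support for them. RNA was taken from axons of dorsal root ganglion neurons, the sensory neurons whose cell bodies lie beside the spinal cord, and hybridised to 10 Affymetrix rat expression arrays. There were 5 arrays from adult rats and 5 from rat embryos at embryonic day 16, labelled as biological replicates. In both groups ganglion explants had grown for 4 days in compartmented chambers, and axons over 1 cm long were collected from the outer compartment. No treatment, strain or genetic change is given in the labels, nor whether a sample pooled several animals.

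CXC chemokines are small secreted proteins that attract leucocytes by binding G protein-coupled receptors. Cxcl1, Cxcl2 and Cxcl3 draw neutrophils through Cxcr2, and NF-kB induces them during inflammation. Cxcl9, Cxcl10 and Cxcl11 are induced by interferons and draw T cells through Cxcr3. Cxcl13 guides B cells into lymphoid follicles through Cxcr5, Cxcl12 is a constitutive ligand of Cxcr4 that also guides migrating neurons, and Cxcl16 is made as a membrane-bound protein that binds Cxcr6. These roles are known mainly from mouse and human. In sensory ganglia, chemokines are studied as signals between immune cells, glia and pain-sensing neurons.

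Values are log2 expression values from robust multi-array average (RMA), and every change is adult minus embryonic on that scale. The table holds no detection calls, and 109 probe sets for genes of unrelated tissues served as the background, with an array's background level at their 95th percentile. It lay between 2.91 and 4.01 on adult arrays and between 3.23 and 3.92 on embryonic arrays. Values were more widely spread on 4 arrays, adult replicates 4 and 5 and embryonic replicates 1 and 5, than on the other 6. The first are called wide and the others narrow below. Poly-A control transcripts averaged 9.70 ± 1.54 on adult and 2.21 ± 0.29 on embryonic arrays (SD, n = 5 each, exact permutation p = 0.0079, two-sided), with no overlap. Stage and whatever set the poly-A signals apart cannot be told apart in any comparison below. Hybridisation control probe sets averaged 11.47 ± 1.60 on adult and 11.47 ± 0.80 on embryonic arrays (SD, n = 5 each). Of 14 sensory neuron markers, 8 were above background on all adult arrays and 11 on all embryonic arrays. In these bulk samples fewer cells of a type and less RNA per cell cannot be told apart either.

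In the rat reference assembly GRCr8, 7 of the 9 genes lie on chromosome 14. Cxcl11, Cxcl10 and Cxcl9 are direct neighbours there, as are Cxcl2 and Cxcl1, whereas Cxcl13 has no other member next to it. Cxcl12 lies on chromosome 4 and Cxcl16 on chromosome 10. RefSeq promoter windows, from 250 bases before to 50 bases after the gene start, were found for 8 members (all but Cxcl3). The 250 bases before the start are shown for the 2 members with the largest changes, Cxcl13 and Cxcl2, and for 2 members set beside them below, Cxcl1 and Cxcl10. They are written 5′ to 3′ on the gene's strand, with motif matches in capitals.
Cxcl13, chr14:13917921-13918170, minus strand: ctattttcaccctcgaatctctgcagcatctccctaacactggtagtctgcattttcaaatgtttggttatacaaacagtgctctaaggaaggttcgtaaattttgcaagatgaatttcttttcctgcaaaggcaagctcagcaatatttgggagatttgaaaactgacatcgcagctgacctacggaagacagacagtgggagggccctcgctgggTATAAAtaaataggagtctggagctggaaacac
Cxcl2, chr14:17467256-17467505, minus strand: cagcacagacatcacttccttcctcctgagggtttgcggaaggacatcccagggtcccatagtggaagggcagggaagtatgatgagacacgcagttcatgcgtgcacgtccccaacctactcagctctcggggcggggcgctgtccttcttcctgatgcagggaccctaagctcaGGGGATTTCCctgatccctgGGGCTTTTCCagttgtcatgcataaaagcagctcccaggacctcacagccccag
Cxcl1, chr14:17479322-17479571, minus strand: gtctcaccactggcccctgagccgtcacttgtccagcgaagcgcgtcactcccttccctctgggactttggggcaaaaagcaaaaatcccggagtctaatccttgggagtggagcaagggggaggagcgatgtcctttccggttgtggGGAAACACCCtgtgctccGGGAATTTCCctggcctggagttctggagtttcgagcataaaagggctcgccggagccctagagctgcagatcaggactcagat
Cxcl10, chr14:15988816-15989065, plus strand: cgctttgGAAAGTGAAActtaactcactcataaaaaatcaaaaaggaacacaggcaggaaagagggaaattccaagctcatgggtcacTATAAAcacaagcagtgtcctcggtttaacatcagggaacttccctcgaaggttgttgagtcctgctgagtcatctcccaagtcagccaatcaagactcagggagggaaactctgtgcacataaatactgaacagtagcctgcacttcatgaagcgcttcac

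Each window was searched for an NF-kB motif (GGG, any 2 bases, TTTCC) and an interferon-stimulated response element (GAAA, any 2 bases, GAAA), both on either strand, and for a TATA box (TATAAA) on the gene's strand. The NF-kB motif matched at 2 places in Cxcl2, beginning 74 and 54 bases before the start, and at 2 places in Cxcl1, beginning 102 (on the opposite strand) and 84 bases before it. These matches do not overlap. The other 6 windows held no match to this exact pattern, and 1.53% of all 33469 promoter windows hold at least 1. Variants of the pattern were not searched, so a window without a match is not shown to lack NF-kB sites. The response element matched in Cxcl10 alone of the 8 members, 243 bases before the start, and is present in 3.92% of all windows. The letters TATAAA began 33 bases before the start of Cxcl13, 41 before that of Cxcl11 and 162 before that of Cxcl10. At any position, 8.8% of all windows hold them. Variants of these letters were not searched either, so a window without a match is not shown to lack a TATA box. A match is a description of the letters and not a shown binding site.

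Among the 9 genes, Cxcl13, Cxcl2 and Cxcl16 were higher on every adult array than on any embryonic array. Over all genes 1.67% separated in that direction, and over all probe sets 1.16%, against 3 of the 16. Of the 9, 2 passed limma's threshold (Benjamini-Hochberg adjusted p of 0.05 over all probe sets), Cxcl13 and Cxcl2, both higher in adult samples, and over all genes 1.26% passed in either direction and 0.612% as higher in adult samples. Since the family was picked on this contrast, nothing is read from these counts. The median change of the 9 genes was 2.19, against −0.00086 over all genes, and 7 changes were above 0, as were 49.9% of those of all genes. Over the 16 probe sets the median was 0.25 and 2 passed, against 0.831% of all probe sets. All 5 adult arrays exceeded background for 3 genes, and all 5 embryonic arrays for 1. Cxcl9 and Cxcl10 were below background on all 10 arrays.

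**Figure D1:**
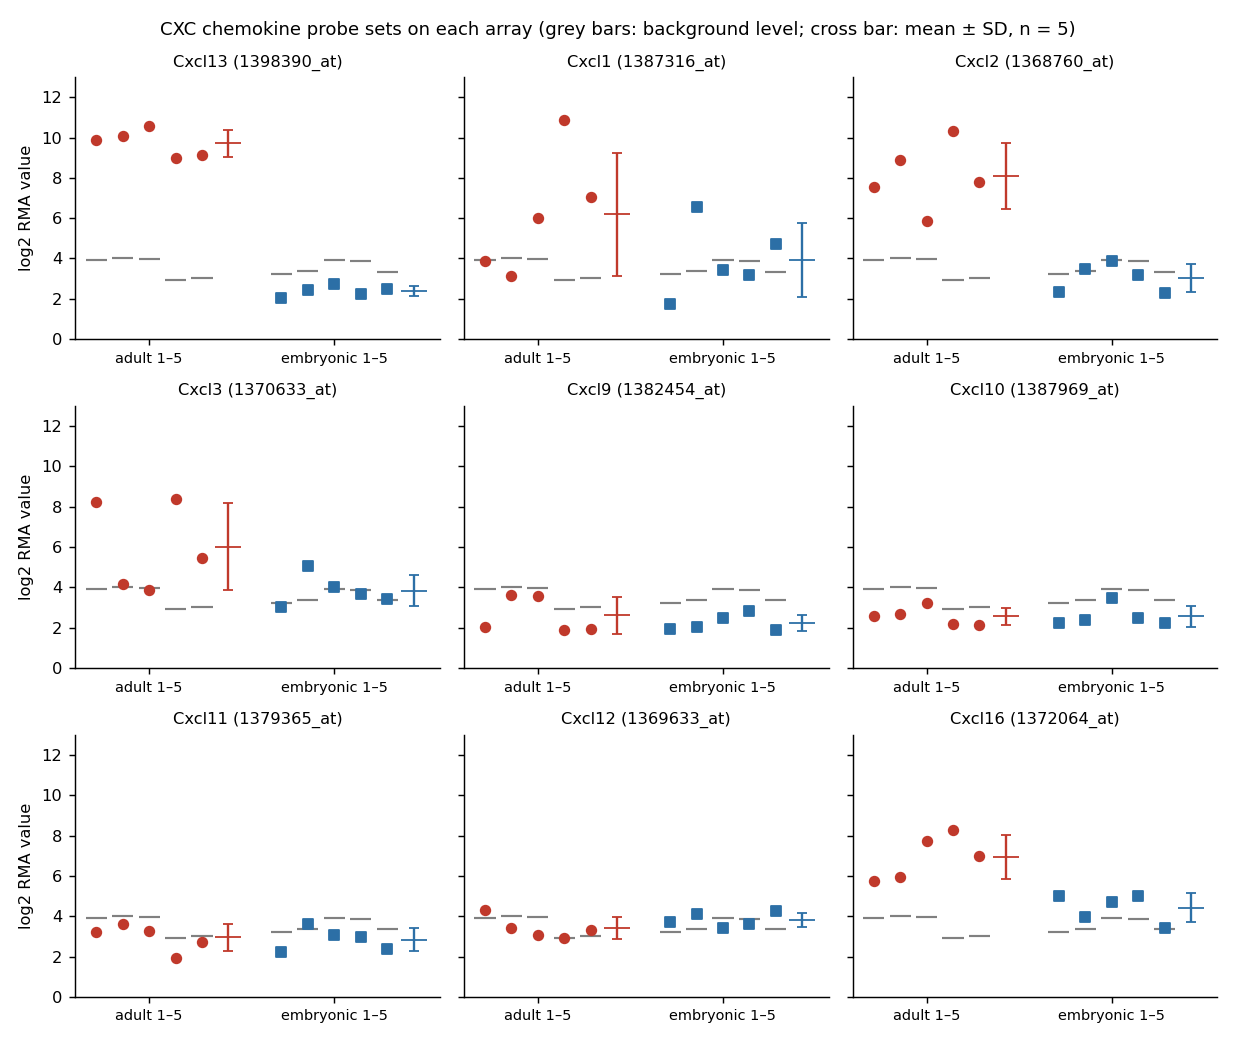
Log2 RMA values of the probe set used for each CXC chemokine on adult replicates 1 to 5 (red circles) and embryonic replicates 1 to 5 (blue squares), with each array's background level as a grey bar and the mean ± SD of a stage beside its points. Cxcl13 lies between 8.98 and 10.58 on adult arrays and between 2.04 and 2.72 on embryonic arrays, while Cxcl9 and Cxcl10 stay below the grey bars in both stages.

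Cxcl13, the B cell attractant, had values of 9.90, 10.07, 10.58, 8.98 and 9.12 on adult replicates 1 to 5, against 2.04, 2.46, 2.72, 2.24 and 2.49 on embryonic replicates 1 to 5. The stages were far apart, and the lowest adult value exceeded the highest embryonic value by 6.26. The mean was 9.73 ± 0.67 in adult and 2.39 ± 0.26 in embryonic samples (SD, n = 5 each), a change of 7.34 ± 0.33 (SE). It was above background on all adult arrays and on 0 embryonic arrays, so its fold is a lower bound. Set against the background level, adult Cxcl13 was at least 72.5-fold higher. The next gene in the order of rises was Adgre1, a surface receptor of macrophages, with a change of 6.69. Cxcl13 was lowest on the 2 adult arrays of wide spread, yet its change was 7.71 in the 6 narrow arrays and 6.78 in the 4 wide ones.

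Cxcl2, whose promoter window above held 2 NF-kB matches, was next among the members and 12th in the order of all rises. Its values were 7.57, 8.88, 5.87, 10.33 and 7.81 on adult arrays, against 2.33, 3.48, 3.85, 3.18 and 2.26 on embryonic arrays. Adult replicate 4 was highest and adult replicate 3 lowest within the adult group, and the lowest adult value still exceeded the highest embryonic value by 2.02. The mean was 8.09 ± 1.65 in adult and 3.02 ± 0.70 in embryonic samples (SD, n = 5 each), a change of 5.07 ± 0.72 (SE). Cxcl2 was above background on all adult arrays and on 1 embryonic array, replicate 2. Its change was 6.77 in the 4 wide arrays and 3.93 in the 6 narrow ones.

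The 2 other neutrophil attractants, Cxcl1 and Cxcl3, overlapped between the stages. Cxcl1 had 3.85, 3.15, 6.03, 10.88 and 7.03 on adult arrays, against 1.73, 6.57, 3.40, 3.19 and 4.74 on embryonic arrays. Its stages overlapped widely, with adult replicate 4 far above the rest and embryonic replicate 2 above 3 of the 5 adult arrays. The mean was 6.19 ± 3.06 in adult and 3.93 ± 1.82 in embryonic samples (SD, n = 5 each), a change of 2.26 ± 1.39 (SE). The size of the change depended on the arrays used, with 5.72 in the wide arrays and −0.04 in the narrow ones. Without adult replicate 4 the change of Cxcl1 was 1.09. Adult replicate 4 held the highest value of Cxcl1, as it did for Cxcl2, Cxcl3 and Cxcl16.

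Cxcl3 was measured by 5 probe sets that fell into 2 kinds. The brightest (1370633_at) had 8.24, 4.16, 3.89, 8.38 and 5.44 on adult arrays, against 3.03, 5.04, 4.02, 3.65 and 3.42 on embryonic arrays. Adult replicates 1 and 4 were high and the other arrays of both stages overlapped. Its change was 2.19 ± 0.91 (SE), from means of 6.02 ± 2.17 in adult and 3.83 ± 0.77 in embryonic samples (SD, n = 5 each). Probe sets 1370634_x_at and 1388032_a_at followed it across the 10 arrays (Pearson r of 0.98 and 0.87), with changes of 1.41 ± 0.67 and 0.83 ± 0.62 (SE). By Affymetrix naming the first of these, ending in _x_at, may also catch other genes. The remaining pair, 1388033_at and 1393182_at, lay below background on all arrays and had changes of 0.06 and −0.19. With the mean of all 5 probe sets the change of Cxcl3 was 0.86. Cxcl1, Cxcl2 and Cxcl3 share much of their sequence, and signal of one gene on another's probes cannot be told apart here.

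**Figure D2:**
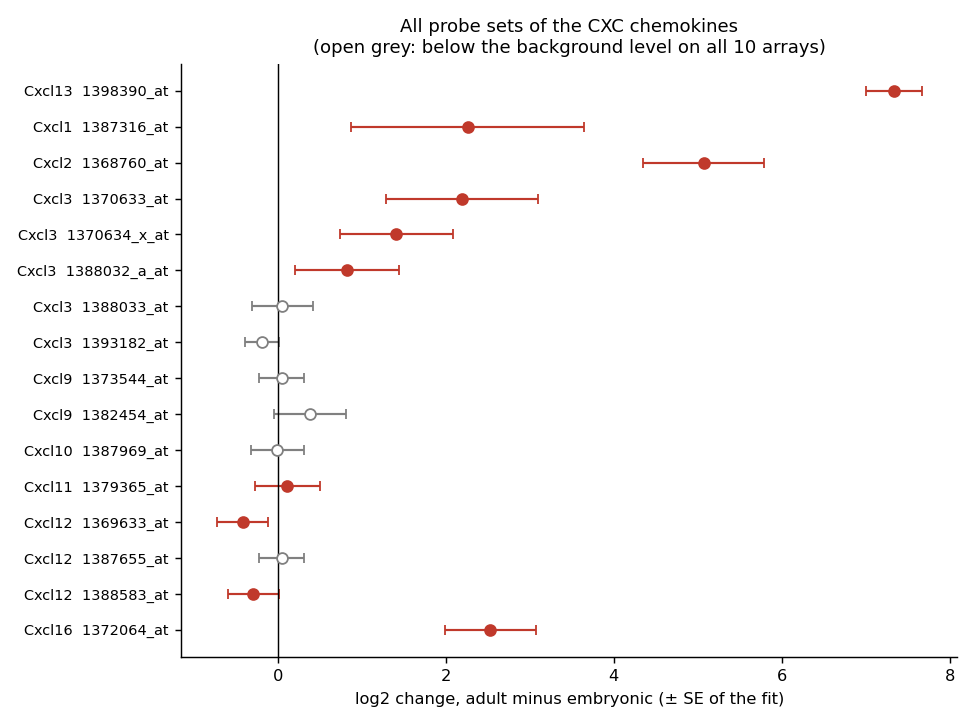
Log2 change, adult minus embryonic, with its SE from the fit for all 16 probe sets of the 9 CXC chemokines, where open grey points were below background on all 10 arrays. Cxcl13 (7.34), Cxcl2 (5.07) and Cxcl16 (2.53) stand to the right, and the 5 probe sets of Cxcl3 run from −0.19 to 2.19.

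The interferon-induced members lay at or under background in both stages. Cxcl10 had 2.56, 2.69, 3.21, 2.20 and 2.14 on adult arrays, against 2.24, 2.38, 3.47, 2.50 and 2.24 on embryonic arrays. The stages overlapped throughout and the change was −0.00 ± 0.32 (SE), from means of 2.56 ± 0.43 and 2.57 ± 0.52 in adult and embryonic samples (SD, n = 5 each). The brighter probe set of Cxcl9 ranged from 1.89 to 3.64 on adult and from 1.90 to 2.84 on embryonic arrays, with a change of 0.38 ± 0.43 (SE), and the other had 0.05 ± 0.27. Cxcl11 ranged from 1.91 to 3.62 on adult and from 2.20 to 3.60 on embryonic arrays, with a change of 0.12 ± 0.38 (SE), and exceeded background on 0 adult arrays and 1 embryonic array. A difference between levels under background could not be seen on these arrays. Of the 3 genes, Cxcl10 has the response element in its promoter window.

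Cxcl12, the constitutive member, had 4.32, 3.40, 3.05, 2.93 and 3.34 on adult arrays, against 3.72, 4.12, 3.41, 3.63 and 4.24 on embryonic arrays. The groups overlapped, with adult replicate 1 above all others, and the gene lay close to background on most arrays. The change was −0.42 ± 0.31 (SE), from means of 3.41 ± 0.55 in adult and 3.83 ± 0.34 in embryonic samples (SD, n = 5 each). Its other probe sets had changes of 0.05 and −0.29. Cxcl16, the membrane-bound member, had 5.75, 5.95, 7.76, 8.29 and 7.001 on adult arrays, against 5.01, 3.95, 4.69, 5.03 and 3.41 on embryonic arrays. Every adult value was above every embryonic one, by at least 0.72, and the gene was above background on all 10 arrays. The change was 2.53 ± 0.54 (SE), or 5.79-fold, from means of 6.95 ± 1.11 and 4.42 ± 0.71 in adult and embryonic samples (SD, n = 5 each).

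**Figure D3:**
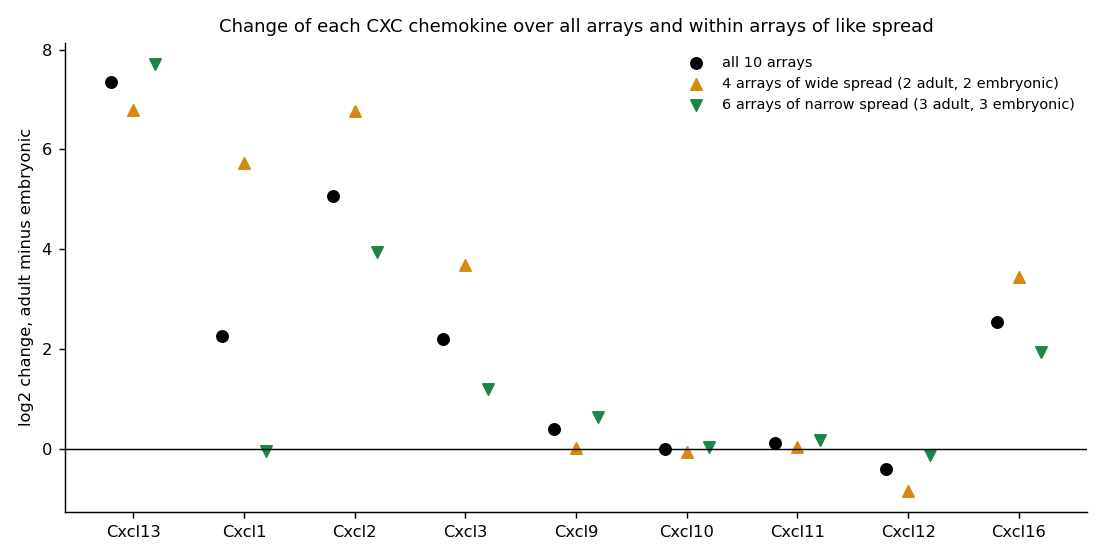
Log2 change, adult minus embryonic, of each CXC chemokine over all 10 arrays (black circles), in the 4 wide arrays (orange triangles) and in the 6 narrow arrays (green inverted triangles). Cxcl13 lies between 6.78 and 7.71 in all 3, whereas Cxcl1 is at 5.72 in the wide arrays and −0.04 in the narrow ones.

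The genes whose pattern was most like Cxcl13 over the 10 arrays by Pearson r were Glipr1 (0.98), Ampd3 (0.97), Tbc1d4 (0.97), C1h16orf54 (0.96) and Pde4b (0.96). Ampd3 is an AMP deaminase, Tbc1d4 a Rab GTPase-activating protein and Pde4b a phosphodiesterase of cyclic AMP. Glipr1 had 7.43 ± 0.54 in adult and 3.23 ± 0.48 in embryonic samples (SD, n = 5 each). Genes like Cxcl13 by this measure are higher in adult samples by the way they were chosen. With the stage means removed the leading genes were Galnt10 (0.97), C10h17orf67 (0.97), Tmem238l (0.96), Pdx1 (0.96) and Mlnr (0.96). Tmem238l, Pdx1 and Mlnr were below background on all 10 arrays, and Cxcl13 on the 5 embryonic ones, so nothing is read from these r values.

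Receptors of CXC chemokines were not part of the family picked for its rise, and 7 of 8 were measured (Cxcr6 was not analysed here). By limma 0 of the 7 passed the threshold, with 1 at an unadjusted p under 0.05, and over all genes 1.26% passed and 13.3% were at an unadjusted p under 0.05. Their median change was 0.19. Cxcr4, the receptor of Cxcl12, had 9.89, 7.17, 9.14, 9.81 and 7.82 on adult arrays, against 7.19, 2.50, 1.84, 2.24 and 9.34 on embryonic arrays. All adult arrays were high, and the embryonic arrays split into the 2 of wide spread, which were high, and the 3 narrow ones, which were below background. The change was 4.15 ± 1.41 (SE), with means of 8.77 ± 1.22 and 4.62 ± 3.42 in adult and embryonic samples (SD, n = 5 each, limma adjusted p = 0.29). Within the 6 narrow arrays it was 6.54 (limma adjusted p = 0.020), and within the 4 of wide spread 0.55 (limma adjusted p = 0.86). The other probe sets of Cxcr4 had changes of 3.27 ± 1.36 and 1.91 ± 0.99 (SE, limma adjusted p = 0.44 and 0.60), and all 3 carry names that mark sequence shared between transcripts or genes.

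Cxcr5, the receptor of Cxcl13, was above background on all 10 arrays by 1 of its 2 probe sets. Its brighter probe set had 6.35, 6.14, 5.46, 5.06 and 4.86 on adult arrays, against 5.33, 6.07, 6.17, 5.79 and 5.10 on embryonic arrays. The stages overlapped, and adult replicate 1 was the highest of all arrays. It had a change of −0.12 ± 0.36 (SE), and means of 5.58 ± 0.65 in adult and 5.69 ± 0.46 in embryonic samples (SD, n = 5 each, limma adjusted p = 0.97). That change was 0.05 with quantile scaling and 0.11 with cyclic loess. The other probe set of Cxcr5 was below background on all arrays, so the 2 disagree. Cxcr2, the receptor of the neutrophil attractants, was below background on all 10 arrays, with means of 2.41 ± 0.63 in adult and 2.18 ± 0.39 in embryonic samples. Cxcr1 and Cxcr3 were each above background on 1 adult and 0 embryonic arrays, and the decoy receptors Ackr1 and Ackr3 each on 0 adult and 1 embryonic arrays.

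**Figure D4:**
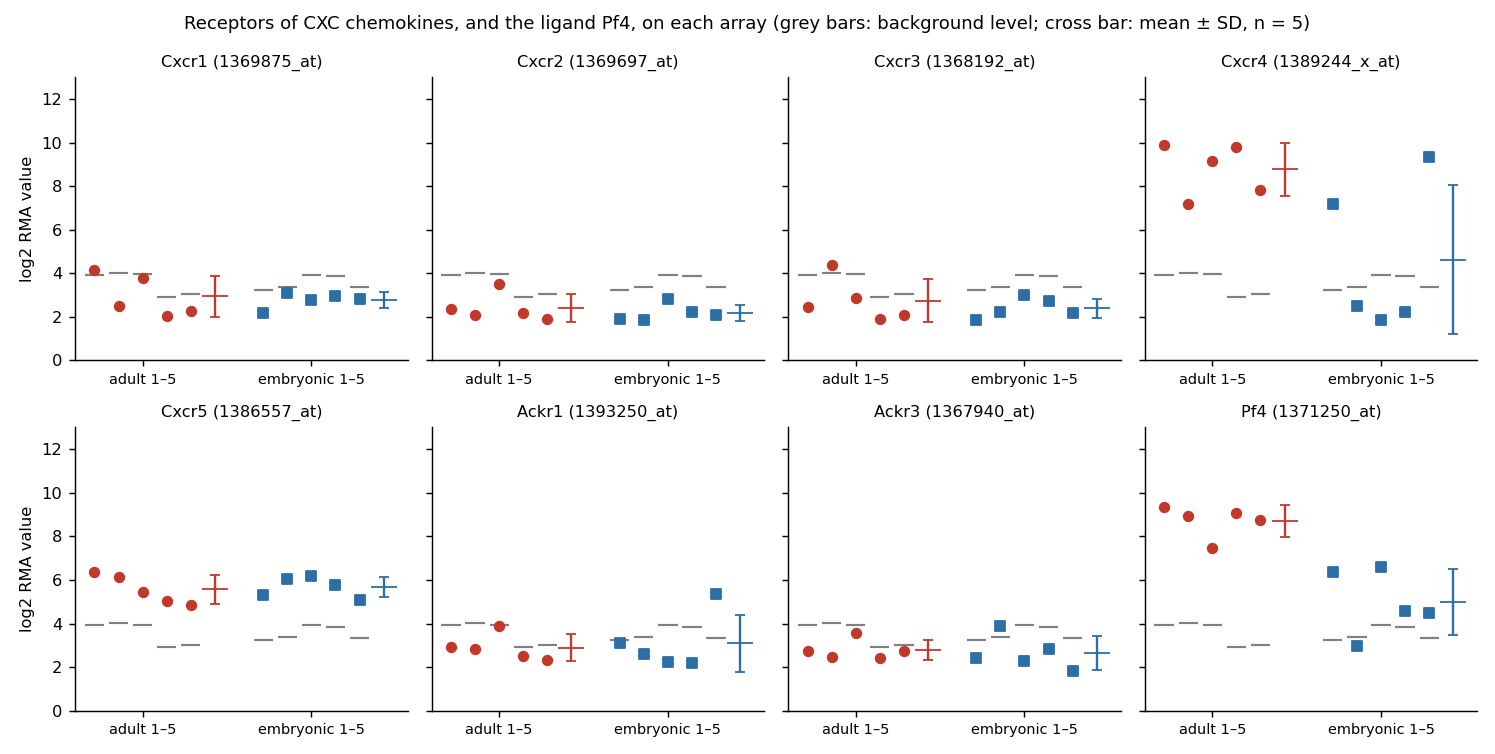
Log2 RMA values of 7 receptors of CXC chemokines and of the ligand Pf4 on adult replicates 1 to 5 (red circles) and embryonic replicates 1 to 5 (blue squares), with background levels as grey bars and the mean ± SD of a stage beside its points. Cxcr4 is above 7 on all adult arrays and on embryonic replicates 1 and 5, and Cxcr5 lies between 4.86 and 6.35 throughout.

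Of 6 other measured ligands of the CXC and related families, 1 rose in adult samples and 0 fell, against 0.612% of all genes called as higher. Pf4, the platelet chemokine also known as Cxcl4, had 9.33, 8.93, 7.46, 9.09 and 8.75 on adult arrays, against 6.36, 2.96, 6.61, 4.60 and 4.49 on embryonic arrays. The groups did not overlap, and the change was 3.71 ± 0.67 (SE, limma adjusted p = 0.032). Pf4 lost the call without adult replicate 1, 2, 4 or 5 or embryonic replicate 4 or 5, with limma adjusted p values up to 0.092. Within the 6 narrow arrays its limma adjusted p was 0.20. Its gene lies next to Cxcl3 on chromosome 14. The other 5 were Cxcl6, Cxcl14, Ppbp, Cx3cl1 and Xcl1, and 3 of the 6 were below background on all 10 arrays.

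Downstream of the receptors, 1 of 20 signalling genes rose and 0 fell, with 6 at an unadjusted p under 0.05 and a median change of 0.40. Over all genes 0.612% were called as higher, and 13.3% had an unadjusted p under 0.05 in either direction. Rgs1, which ends signalling of G protein-coupled receptors in leucocytes, had 5.85, 7.16, 9.20, 7.24 and 5.54 on adult arrays, against 2.68, 2.84, 2.83, 3.58 and 2.50 on embryonic arrays. All adult values were above all embryonic ones, and Rgs1 was below background on every embryonic array. The change was 4.11 ± 0.61 (SE, limma adjusted p = 0.011), at least 10.9-fold, and within the 6 narrow arrays the limma adjusted p was 0.10. Among 20 genes of NF-kB induction, 2 rose and 0 fell, with 9 at an unadjusted p under 0.05 and a median change of 1.14, set against the same shares of all genes. They were Tlr2, a receptor of bacterial lipoproteins, with a change of 5.06 ± 0.71 (SE, limma adjusted p = 0.0090), and Nfkbiz, an atypical NF-kB inhibitor protein, with 3.75 ± 0.72 (SE, limma adjusted p = 0.044). Tlr2 ranged from 6.89 to 9.84 on adult and from 2.45 to 5.71 on embryonic arrays, while Nfkbiz ranged from 3.68 to 8.21 and from 2.27 to 3.42 on adult and embryonic arrays. The call of Nfkbiz was lost without any 1 of the arrays other than adult replicate 2, with limma adjusted p values up to 0.11.

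Genes of the lymphotoxin and interferon axes and of chemokine processing did not pass the threshold. Of 10 genes of the lymphotoxin axis, which induces Cxcl13 in lymphoid tissue, 0 were called by limma and 2 were at an unadjusted p under 0.05, with a median change of 0.55. The largest changes were those of Traf3 (1.69 ± 0.74, SE, limma adjusted p = 0.48) and Ltb (0.86 ± 0.42, SE, limma adjusted p = 0.56). Of 19 genes of the interferon axis, likewise 0 were called and 2 had an unadjusted p under 0.05, with a median of 0.23. The gene of interferon gamma, Ifng, was below background on all 10 arrays, and its receptor chain Ifngr1 had a change of 2.28 ± 0.84 (SE, limma adjusted p = 0.35). Of 13 proteases and proteoglycans that cut or bind chemokines, 0 were called and 3 had an unadjusted p under 0.05. Mmp2, a gelatinase that can inactivate Cxcl12, had a change of −2.72 ± 0.90 (SE, limma adjusted p = 0.27), and the proteoglycan Sdc4 by 2.20 ± 0.77 (SE, limma adjusted p = 0.32). Over all genes 1.26% were called.

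Markers of the cell types that make or answer these chemokines were measured beside them. Over all genes 0.612% were called as higher and 0.647% as lower in adult samples. Of 16 macrophage markers 8 rose and 0 fell, with a median change of 3.79, and 12 were above background on all adult arrays and 3 on all embryonic arrays. Of the 10 omissions of 1 array, 7 lost the calls of Aif1, C1qa and Cd14 each, and 8 that of Mrc1. The calls of Adgre1, Fcgr1a, Lyz2 and Ptprc were lost in 0 of them. Over all 7 marker lists 12 genes were called, and 5 to 7 without embryonic replicate 2, 3 or 5 or adult replicate 3 or 4. The summed signal of the macrophage markers, on the linear scale, ranged from 5575 to 14064 on adult arrays and from 184 to 1838 on embryonic arrays. Adgre1 changed by 6.69 ± 0.75 and Lyz2, the lysozyme of macrophages, by 6.69 ± 0.75 (SE, limma adjusted p = 0.0022 for both), and the leucocyte antigen Ptprc by 4.91 ± 0.59 (SE, limma adjusted p = 0.0039). Lyz2 was above background on all embryonic arrays, Adgre1 and Ptprc on 1, embryonic replicate 1. Cxcl13 was below background on that array as on the other embryonic arrays. The part of macrophages in the chemokine values was not tested.

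Most neutrophil and lymphocyte markers lay near background. Of 5 neutrophil markers 0 were called by limma and 0 had an unadjusted p under 0.05, with summed signals of 25.5 to 60.5 on adult and 21.6 to 35.8 on embryonic arrays. S100a9, Csf3r and Mmp8 were below background on all 10 arrays, and Camp was above it on 0 adult and 2 embryonic arrays. S100a8 had 2.28, 1.74, 2.21, 5.34 and 3.21 on adult arrays, against 1.81, 2.11, 2.44, 1.83 and 2.17 on embryonic arrays. It was above background on adult replicates 4 and 5 only. The part of neutrophils in the chemokine values was not tested. Of 11 B and T cell markers 0 were called and 0 had an unadjusted p under 0.05, with summed signals of 54.3 to 131 and 66.2 to 97.6 on adult and embryonic arrays. The B cell gene Ms4a1 and the T cell genes Cd3e, Cd3d and Cd3g were below background on all 10 arrays. Of 14 sensory neuron markers 4 fell and 0 rose, among them the intermediate filament genes Prph (−4.32 ± 0.71, SE, limma adjusted p = 0.020), Nefl (−3.72 ± 0.69, SE, limma adjusted p = 0.036) and Nefm (−3.42 ± 0.53, SE, limma adjusted p = 0.014). Over all genes 1.26% were called in either direction and 0.647% as lower in adult samples. The call of Prph was lost without embryonic replicate 2, 3 or 5 or adult replicate 3 or 4. That of Nefl was lost without any 1 embryonic array, without adult replicate 1 or 4, and with quantile scaling or cyclic loess. With replicate number as a block in the fit, the calls of Nefl and Nefm were lost. Within the 6 narrow arrays those of Prph, Nefl and Nefm were lost. The summed signal of the neuron markers was 1494 to 7359 on adult and 4712 to 21301 on embryonic arrays. Fibroblast, Schwann and satellite cell, and endothelial lists had 0 called genes of 10, 11 and 8, with 2, 3 and 2 at an unadjusted p under 0.05. Their summed signals were 107 to 3289, 1044 to 4992 and 65.8 to 165 on adult arrays and 219 to 683, 388 to 825 and 52.2 to 115 on embryonic arrays, in that order.

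**Figure D5:**
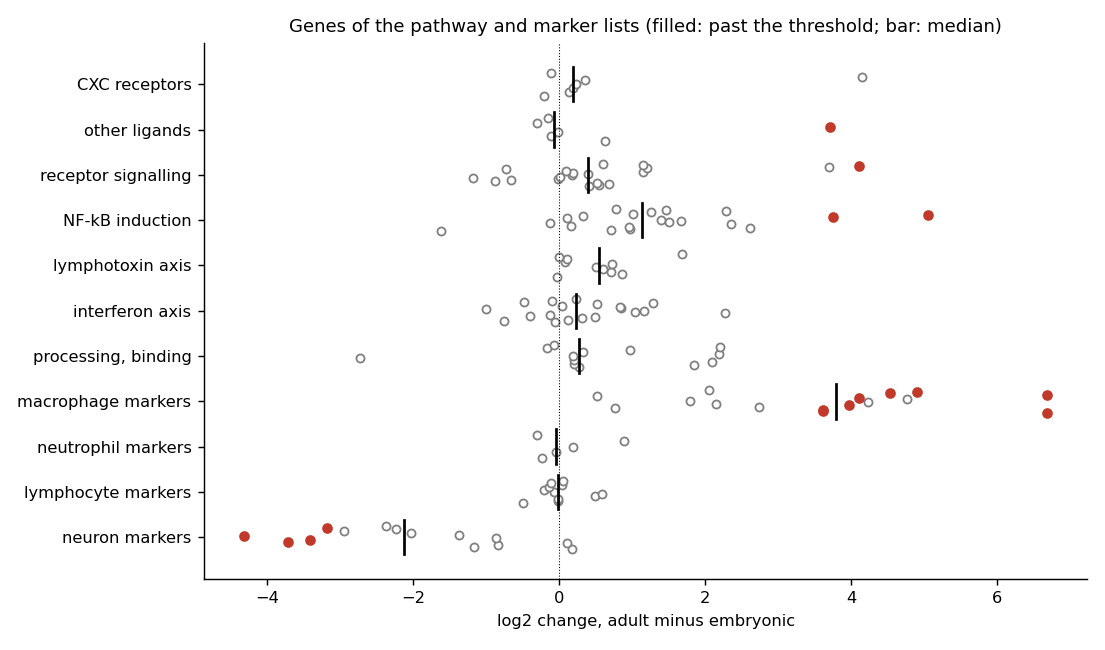
Log2 change, adult minus embryonic, of each measured gene of 7 pathway lists and 4 marker lists, with genes past limma's threshold filled and the median of a list as a bar. The median is 3.79 for macrophage markers and −2.13 for neuron markers, and it lies between −0.07 and 1.14 for the pathway lists.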

How the data were processed

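Axonal RNA was hybridised as biotin-labelled cRNA to Affymetrix rat arrays, per the labels' protocols. The deposited table holds 1 value per probe set and array, made by the authors with RMA, per the submitters' processing notes. The log2 scale of the deposited values was taken from their range, and no source used here gives the version or options of RMA. They were used without further scaling.

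Control probe sets (57) were left out, and the remaining 31042 were fitted with limma 3.58.1 (lmFit and eBayes, R 4.3.3), adult against embryonic, with Benjamini-Hochberg adjustment over all of them and a threshold of 0.05. Gene symbols came from the platform annotation, and 20826 probe sets had a single symbol. A gene was represented by its probe set of highest mean. Apart from that choice, levels of different probe sets were set together only for the background level and in the summed marker signals. Background was set from 92 genes restricted to other tissues. Named genes were all members and receptors, and up to 3 called genes of the largest change per other list (the 2 largest where a pathway list had none). The gene with the next largest rise and the 5 genes most like Cxcl13 by each measure were named too. Ifng, Cxcl6, Cxcl14, Ppbp, Cx3cl1, Xcl1, S100a8, Camp and the markers at background are named beside them, chosen after their values were seen. So are the other called macrophage markers, named for how often their calls were lost. The members and lists were chosen with earlier results of these data known. Arrays were called wide or narrow by whether the SD of all their values lay above the middle of its range (1.49 to 2.07). The p-values measure the spread between arrays labelled as biological replicates, whose number limits the precision. Alternatives were other scalings, a filter on weak probe sets, other variance models, array weights, blocks and omission of each array. Whether replicate numbers pair the samples was checked from deviations of same-numbered arrays (r from −0.12 to 0.28). No evident pairing was seen, though this check cannot exclude a shared preparation.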

Additional observations from a re-analysis of the deposited data

Results flagged for a closer look

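In 10 of 104 groups of 5 arrays looked at, 1 array lay far from the other 4. Chance gives about 5 in 100 such groups. The gap of each was over 0.71 of the range of its group.

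Among the chemokines, Cxcl3 probe set 1388032_a_at was 5.21 on embryonic replicate 4, with the next array at 4.26. Cxcl3 probe set 1388033_at was 3.24 on adult replicate 3, with the next at 1.85. Cxcl10 was 3.47 on embryonic replicate 3, with the next at 2.50. Cxcl12 probe set 1387655_at was 3.09 on adult replicate 3, with the next at 2.16. The last 3 of these values were below the background level of their arrays.

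Among the receptors, Cxcr4 probe set 1370097_a_at was 7.26 on embryonic replicate 5, with the next at 3.24, and Ackr3 was 3.55 on adult replicate 3, with the next at 2.73. On embryonic replicate 1, Adgre1 was 5.61, with the next at 2.78, Ptprc was 4.31, with the next at 3.04, and Tlr2 was 5.71, with the next at 2.88. Nefm was lowest on embryonic replicate 4, at 10.04, with the next at 11.32. Cxcl13 had no such array in either stage.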

How the results depend on the processing

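Leaving out 1 array in turn gave changes of 7.13 to 7.53 for Cxcl13, 4.51 to 5.62 for Cxcl2, 2.20 to 2.83 for Cxcl16 and 1.09 to 3.02 for Cxcl1. Changes near 0 took both signs over omissions for Cxcl10 (−0.17 to 0.22) and Cxcl11 (−0.05 to 0.38), and Cxcl10 was 0.05 with array weights and 0.04 in narrow arrays. The omissions gave 150 to 339 called probe sets (59 to 138 higher, 86 to 237 lower), 2 to 4 called pathway genes and 5 to 13 called marker genes, against 258 (116 and 142), 4 and 12 with all arrays. The filter on weak probe sets gave 427 called (197 higher, 230 lower), and array spread as a block gave 401, of which 247 were lower. With quantile scaling, cyclic loess and that filter 3 members were called, Cxcl16 being added to Cxcl13 and Cxcl2. Probe sets called in these settings were 322 and 297 of 31042, and 427 of 11970, in that order. The filter kept probe sets above background on at least 5 arrays, and Cxcl13 passed it through its 5 adult arrays alone. Since the family was picked on this contrast, nothing is read from the member calls in any setting. The replicate block gave 191 called probe sets and 2 called pathway genes. No evident pairing by replicate number was seen, and only replicate 3 correlated best with its own number.

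Within the 4 arrays of wide spread limma called 0 probe sets, higher or lower, 0 members, 0 pathway genes and 0 marker genes. At an unadjusted limma p under 0.05 were 4657 of all 31042 probe sets, 20 of 95 pathway genes and 20 of 75 marker genes. Changes there were 6.78 for Cxcl13, 5.72 for Cxcl1 and 6.77 for Cxcl2. Within the 6 narrow arrays 1 member, Cxcl13, was called, beside 210 of all 31042 probe sets, and Cxcl2 lost its call. Above background on all embryonic arrays were 2 members with the 90th percentile and 0 with the 99th, against 1. Signs turned for Ackr1 (0.0081 with quantile scaling, 0.87 in narrow arrays, −0.46 to 0.36 over omissions), Ackr3 (−0.090 in narrow arrays, −0.078 to 0.44 over omissions), Cxcr5 (0.049 with quantile scaling, 0.11 with cyclic loess, −0.31 to 0.062 over omissions), Cxcr1 (−0.11 to 0.42), Cxcr2 (−0.037 to 0.40), Cxcr3 (−0.054 to 0.56) and Tmem238l (−0.072 to 0.28). In the arrays of wide spread they turned for C10h17orf67 (−0.38), Mlnr (−0.37), Tmem238l (−0.34), Cxcr1 (−0.33), Pdx1 (−0.30), Galnt10 (−0.13) and Cxcr3 (−0.012). The cause was not tested. No detection calls were used here, so values under background carry no order.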
